A study of Mus musculus with 8 samples.

Results

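Accessible chromatin at Zic1, Zic2, Zic4 and Zic5 was described in cardiac progenitors made from mouse embryonic stem cells, at 2 stages and after induction of GLI1. ATAC-seq peaks were taken when their summit had 1 of these 4 genes as the nearest protein-coding gene within 100 kb, which gave 57 of the 172983 peaks in 3 deposited lists: 16 in the day 5 list, 15 in the day 7 control list and 26 in the day 7 GLI1 list. Merging those that overlapped within a list left 12, 8 and 15 regions, and each of the 4 genes had a region in every list, as 68.2%, 64.9% and 67.2% of 21887 genes had. All cells were of the line GLI1-FTA (strain A2Lox.cre). The day 5 controls (2 libraries) and day 7 controls (3 libraries) were untreated, and the GLI1 group (3 libraries, day 7) was given 500 ng/ml doxycycline for 48 hours from day 5. Each list pools the libraries of a group, so no replicate spread exists for any value, no p-value between conditions is given, and doxycycline itself cannot be told apart from GLI1. The control list names no day; it was taken as day 7 because it is named like the list of doxycycline-treated cells, and because a separate list exists for day 5.

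The Zic genes encode transcription factors with tandem C2H2 zinc fingers related to those of the GLI proteins, the end point of Hedgehog signalling. They sit in divergent pairs, Zic1 with Zic4 and Zic2 with Zic5, and are best known from the dorsal neural tube, neural crest and somites. ZIC2 is a holoprosencephaly gene in people, loss of ZIC1 and ZIC4 is linked to cerebellar malformation, and Zic5 acts in neural crest formation. In an ATAC-seq list a peak marks DNA open to the Tn5 transposase, not transcription of the nearest gene.

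In mm10, Zic1 lies on chromosome 9 at 91358058 to 91365768 (minus strand) and Zic4 at 91365631 to 91389351 (plus strand). Their RefSeq intervals overlap by 138 bp, and the nearest other protein-coding genes are Tbc1d2b at 1090 kb and Plscr5 at 797 kb. Zic5 lies on chromosome 14 at 122459160 to 122465658 (minus strand) and Zic2 at 122475384 to 122480328, 9.73 kb apart, with Clybl 56.9 kb below Zic5 and Pcca 4.04 kb above Zic2. The annotation used here does not give exons, so a region is placed inside or outside a gene only.

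The 250 bases before a listed start of 3 of the genes were available from RefSeq (GRCm38.p6, the assembly of mm10) and are shown because the lists differed there. The Zic1 stretch (chromosome 9, 91365769 to 91366018) lay under a peak over 199 bases at day 5 and 236 bases with GLI1, and under none in the day 7 control list. The Zic4 stretch (chromosome 9, 91368722 to 91368971) lay under no peak. It precedes a listed start at 91368972, which is inside the RefSeq interval of Zic4 and not at its lower end, 91365631. The Zic5 stretch (chromosome 14, 122465659 to 122465908) lay wholly under a peak of the day 7 control list and partly under one of the GLI1 list. Each is written 5′ to 3′ on the strand of its gene, and capitals mark matches to the motifs given after them.
Zic1: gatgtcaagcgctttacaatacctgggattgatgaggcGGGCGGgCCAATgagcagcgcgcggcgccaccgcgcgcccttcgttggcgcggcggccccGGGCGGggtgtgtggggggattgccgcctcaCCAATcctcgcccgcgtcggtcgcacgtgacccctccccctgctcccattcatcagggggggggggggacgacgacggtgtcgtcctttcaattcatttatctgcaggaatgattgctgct
Zic4: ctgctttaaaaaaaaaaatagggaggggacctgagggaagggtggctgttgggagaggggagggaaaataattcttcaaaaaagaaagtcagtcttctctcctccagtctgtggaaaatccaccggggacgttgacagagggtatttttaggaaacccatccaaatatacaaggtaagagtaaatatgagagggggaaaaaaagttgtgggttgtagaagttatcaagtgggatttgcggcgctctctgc
Zic5: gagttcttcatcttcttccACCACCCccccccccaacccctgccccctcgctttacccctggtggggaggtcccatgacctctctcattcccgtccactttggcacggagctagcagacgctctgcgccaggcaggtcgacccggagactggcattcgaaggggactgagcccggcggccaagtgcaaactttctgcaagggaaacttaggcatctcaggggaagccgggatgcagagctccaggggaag
The motifs searched on both strands were GACCACCCA and its shorter form ACCACCC (GLI), CAGCAGG and CNCAGCNGG (ZIC), CCAAT (a promoter box), TATAAA (another promoter box) and GGGCGG (Sp). ACCACCC is contained in GACCACCCA, and CAGCAGG and CNCAGCNGG can overlap. The capitals in Zic1 are 2 GGGCGG and 2 CCAAT matches, motifs held by 42.3% and 36.2% of the same stretch of 17492 genes, and the capitals in Zic5 are 1 ACCACCC match, held by 3.88%. No other motif matched: GACCACCCA, CAGCAGG, CNCAGCNGG and TATAAA are held by 0.149%, 8.15%, 7.57% and 12.3% of these stretches. The Zic1 and Zic5 stretches were rich in G and C (66.0% and 62.4%, against a median of 55.2%), and the Zic4 stretch was not (44.4%).

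The fold of a peak is its enrichment at the summit over the background, as the authors' peak caller gave it; both day 7 lists had a constant background, so their folds convert exactly to reads over the summit. A region of the GLI1 list with no overlapping day 7 control region is called gained, and the opposite case lost. Intervals beside reads, shares and ratios are 95% intervals for counting error only, and leave out the differences between cultures. In pooled cells, a larger share of cells with open DNA and more open DNA per cell cannot be told apart.

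The Zic1-Zic4 locus held more accessible regions with GLI1. Within 100 kb, the GLI1 list had 10 regions there and the day 7 control list 2. Of the 10, 8 were gained, and none of the 2 control regions was lost. Several of the 10 lay close together: with peaks within 500 bases merged, the GLI1 list had 6 regions and control 2, and the same counts were left at a −log10 q of 5 or more. At Zic2 and Zic5 the GLI1 list had 5 regions and control 6, with 3 gained and 3 lost. That balance did not hold under other settings: 1 was gained and 3 were lost with D7 lists of equal length, 1 and 2 at a −log10 q of 5 or more, and 0 and 1 at 10 or more. Over the 4 genes 11 of 15 GLI1 regions were gained (73.3%, Wilson 48.0 to 89.1), where 39.0% of all GLI1 regions were, and 3 of 8 control regions were lost (37.5%, 13.7 to 69.4), where 31.6% of all were. Because neighbouring regions are not independent, these intervals do not test a difference from the shares over all regions. With peaks limited to a −log10 q of 5 or more, 5 were gained and 2 lost, and 4 of these 5 were at Zic1-Zic4. With the GLI1 list shortened to the length of the control list, 7 were gained and 3 lost. The shares over all regions were not computed for these other settings, so their counts have no background beside them.

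The strongest gained region lay just before the start of Zic1. It lay at 91365783 to 91366098 with its summit at −175 from the start of Zic1, inside the promoter sequence shown above, and had a fold of 7.20 from 40 reads (28.6 to 54.5). The day 7 control list, whose lowest fold was 2.52 from 13 reads, had its nearest region 9658 bp away. At day 5 a peak stood at 91365820 to 91366047, with its summit at −184, a fold of 7.79 and 21 reads (13.0 to 32.1). Because the RefSeq interval of Zic4 reaches over the start of Zic1, the rule gave this region to Zic4. By the listed start sites it belongs to Zic1, which then has 7 gained regions and Zic4 has 1. Of 17492 genes with a promoter window in the reference, 171 (0.978%) had that window open at day 5 and with GLI1 and not in day 7 control, and Zic1 was among them.

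Further gained regions ran through the body of Zic1. Next to the start, inside the gene, 91365114 to 91365528 had a fold of 5.62 (31 reads, 21.1 to 44.0). Weaker ones followed, at 91364863 to 91365062 with 2.98 and at 91364411 to 91364618 with 2.63. A region at 91361853 to 91362263 had 4.21. Beyond the end of the gene, 91356382 to 91356581 had 3.69 and 91352880 to 91353136 had 3.51. Only the 2 regions next to the start of Zic1 reached 2 times the lowest fold of the control list, a level that 23.2% of all gained regions reached. The lower end of the Zic4 interval, at 91365631, lies between these 2 regions, and no promoter stretch was available there. On the other side of the locus 1 gained region, 91405864 to 91406095, lay 16.7 kb beyond Zic4 with a fold of 3.51.

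Both regions of the locus that control shared had a higher fold with GLI1, 1 of them beyond counting error. The shared region inside Zic4 at 91381314 to 91382143 had a fold of 13.5 (76 reads, 59.9 to 95.1) with GLI1 and 7.02 (38 reads, 26.9 to 52.2) in control. The ratio was 1.93 (1.30 to 2.94), and 4.56% of the 26277 shared regions had a ratio as high. The GLI1 list showed 2 summits in it, with folds of 13.5 and 12.6, where the control list showed 1. Both, at 91381554 and 91381871, lay more than 100 bp from the control summit at 91381667, so the ratio compares the highest folds of the region at different positions. The shared region 2298 bp beyond the end of Zic1, at 91355533 to 91356098, had 6.49 (36 reads) against 4.14 (22 reads), a ratio of 1.57 whose interval of 0.909 to 2.83 includes equality.

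**Figure D1:**
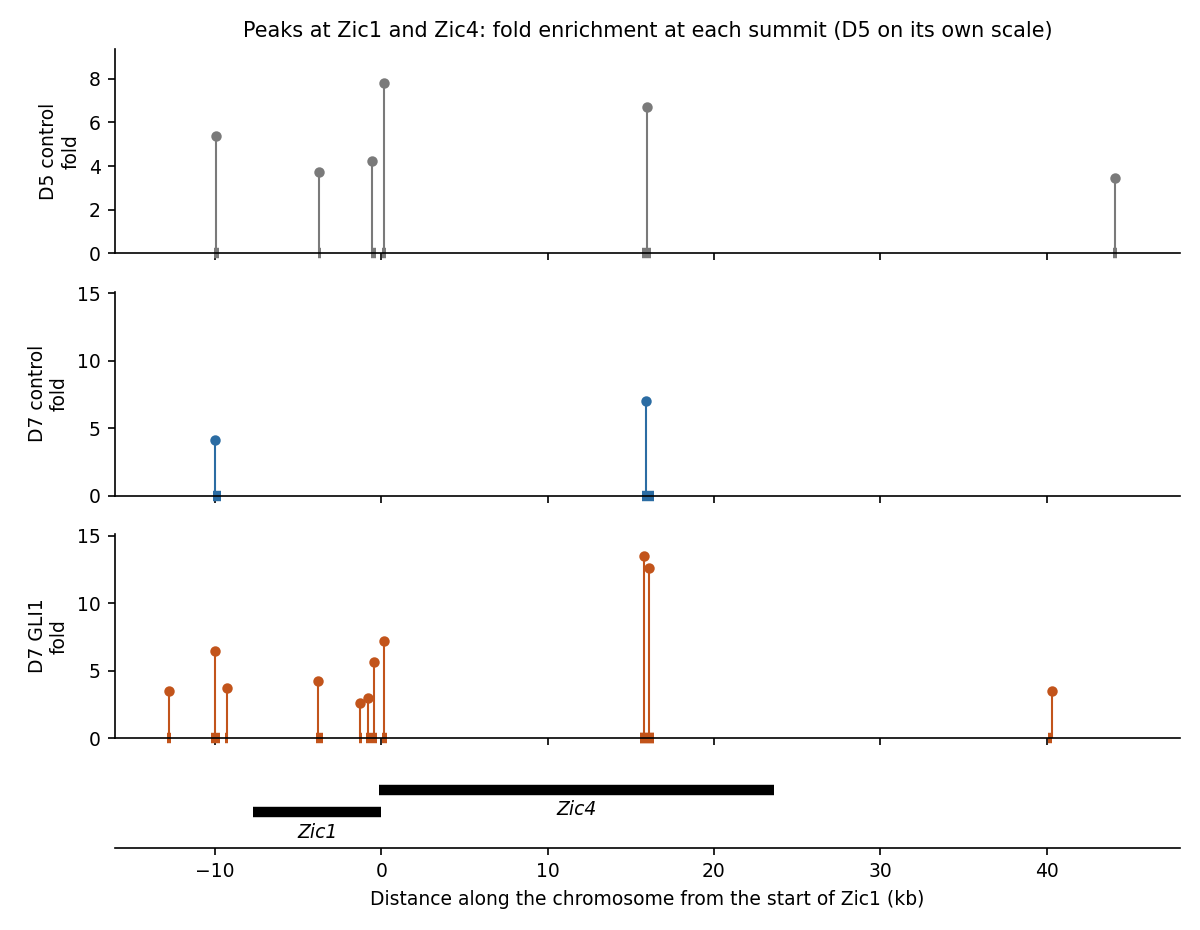
Fold at each peak summit (vertical axes, ratio to background; the day 5 scale is its own and is not comparable) against distance in kb from the start of Zic1, with peak extents as thick marks on the axis and the gene intervals below. The control list has 2 peaks, and the GLI1 list has 11, of which the highest are the pair inside Zic4 at 13.5 and 12.6.

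The regions at the start of Zic5 and the lower end of Zic2, the end facing Zic5, were open in all 3 lists and weaker with GLI1. At Zic2, the region at 122473255 to 122476360 in control was 3106 bp wide, a width that 0.441% of control regions reach, and held 5 summits. With GLI1 it was 2945 bp wide with 7 summits. At day 5 it was 1425 bp wide with 5, a width that 0.117% of day 5 regions reach. Day 5 regions were narrower in general, with a median of 238 bp against 480 bp in control. The highest fold of the Zic2 region was 38.7 in control (214 reads, 186.3 to 244.7) and 23.7 with GLI1 (134 reads, 112.3 to 158.7). The ratio was 0.612 (0.486 to 0.757). Of all shared regions 14.8% had a ratio as low, and 11.6% of the 5345 shared regions with a control fold of at least 30. The Zic5 region, at 122463388 to 122465767 with GLI1, reached 14.6 (82 reads, 65.2 to 101.8) against 21.6 (119 reads, 98.6 to 142.4) in control, a ratio of 0.674 (0.498 to 0.893), which 17.5% of shared regions match or fall below.

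The lower fold was seen at all paired summits of both regions and not at 1 summit alone. Of 9 control summits in them, 7 paired with a GLI1 summit within 100 bp, and all 7 were lower with GLI1, with ratios from 0.482 to 0.674 and intervals below 1; in the lists as a whole 41.3% of 34244 such pairs were lower with GLI1. The unpaired control summits were the lowest of each region, at 122473583 in the Zic2 region (7.02) and at 122463613 in the Zic5 region (3.78). Their nearest GLI1 summits, at 122473743 and 122463886, were more than 100 bp away and had similar folds of 6.14 and 3.69. The summits of a region share reads and are not independent. At the summit closest to the lower end of Zic2 the fold was 34.4 in control and 16.7 with GLI1 (0.485, 0.371 to 0.618). At the summit closest to the start of Zic5 it was 15.7 and 7.55 (0.482, 0.319 to 0.693). The position of summits was stable: the main Zic5 summit lay at 122464245 at day 5, 122464244 in control and 122464241 with GLI1. The main Zic2 summit lay at 122474275, 122474269 and 122474304.

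**Figure D2:**
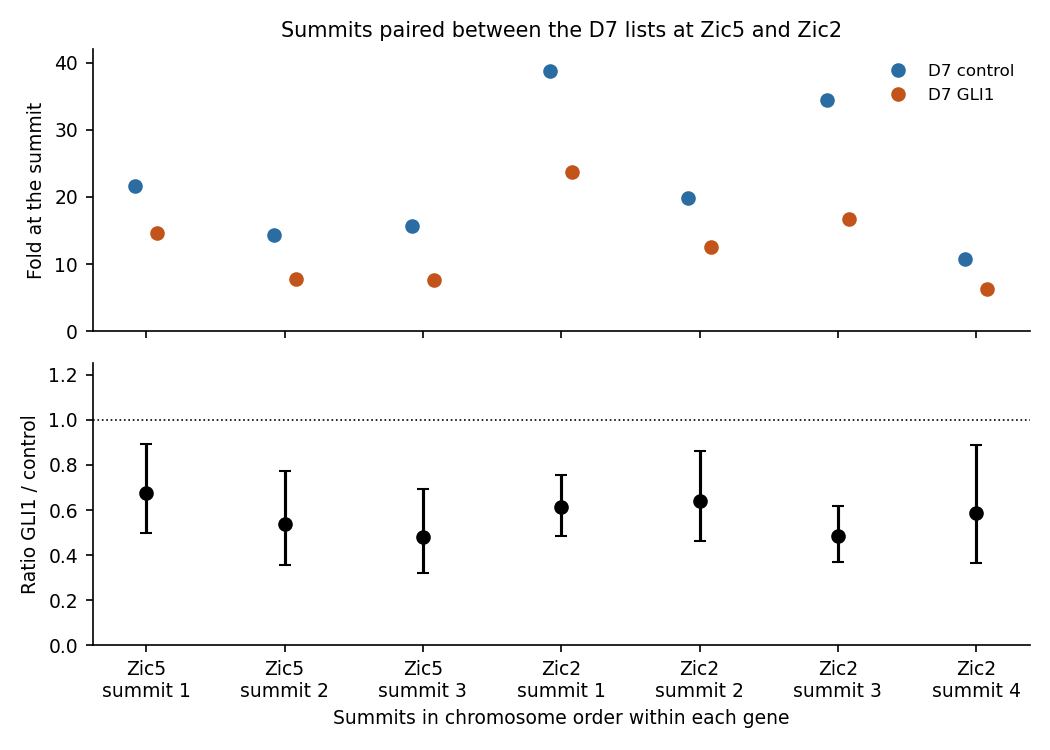
Upper panel: fold at the 7 summits of the Zic5 and Zic2 regions that pair within 100 bp between the day 7 lists. Lower panel: ratio of the folds, GLI1 over control, with 95% intervals for counting error; all 7 lie below the dotted line of equality, between 0.482 and 0.674.

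No shared Zic region passed a ratio of 2 in either direction, which 3.96% of shared regions did upward and 10.6% downward. At 1.5, a threshold chosen after the ratios were seen, Zic4 and Zic1 passed upward (12.9% of all shared regions) and Zic2 downward (17.1%), while Zic5 at 0.674 did not pass. The median ratio of all shared regions was 1.05, with quartiles of 0.807 and 1.28. Within the control list the order of the highest summits was Zic2 (214 reads), Zic5 (119), Zic4 (38) and Zic1 (22); the intervals of Zic4 and Zic1 overlapped. Within the GLI1 list it was Zic2 (134), Zic5 (82), Zic4 (76) and Zic1 (36), and Zic5 and Zic4 overlapped. The order was thus the same in both lists, with a narrower span with GLI1.

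**Figure D3:**
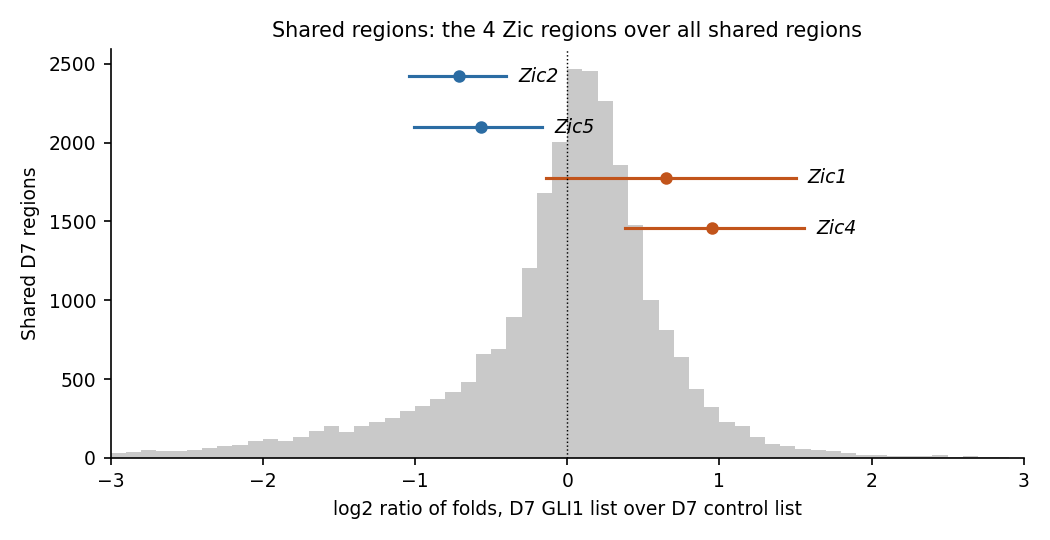
Number of shared day 7 regions (grey bars) by the log2 ratio of their folds, GLI1 list over control list, with the 4 Zic regions as points with 95% counting intervals (their height has no meaning). Zic2 and Zic5 lie left of 0 with ratios of 0.612 and 0.674, and Zic1 and Zic4 right of it with 1.57 and 1.93.

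The minor regions of the Zic2-Zic5 locus went both ways. Inside Zic5, a control region at 122462245 to 122462804 with a fold of 5.22 was lost. Below Zic5, a control region at 122452757 to 122452956 (3.24) was lost, whereas regions at 122450776 to 122451110 (4.39) and 122432464 to 122432663 (2.63) were gained. Inside Zic2, a lost region at 122478600 to 122478873 (4.86) and a gained one at 122478899 to 122479098 (2.46) were 25 bp apart, so this pair counts as a change only under the rule of overlap. The lost Zic5 region was the only one of the 3 lost to reach 2 times the lowest fold of the GLI1 list, as 24.5% of all lost regions did.

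**Figure D4:**
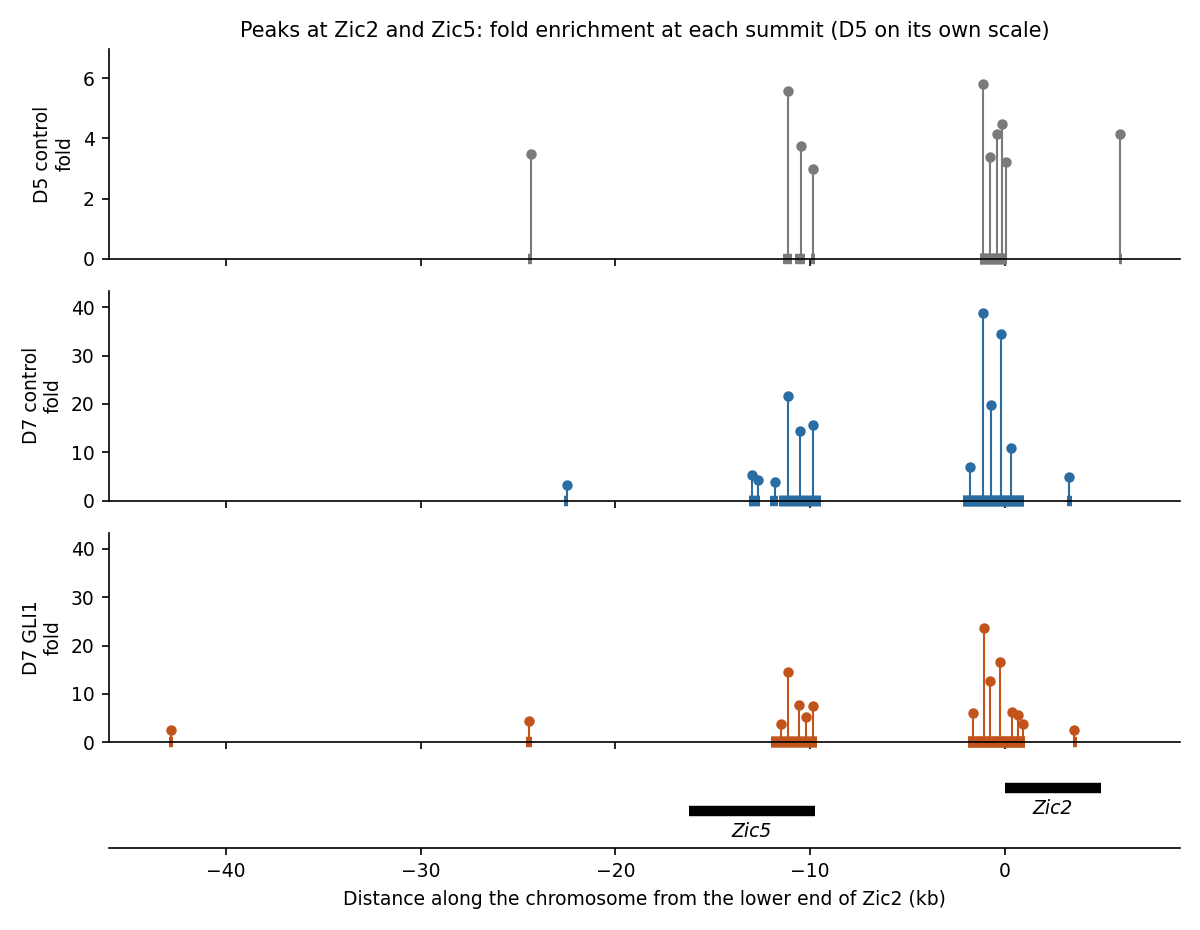
Fold at each peak summit (vertical axes, ratio to background; the day 5 scale is its own and is not comparable) against distance in kb from the lower end of Zic2, with peak extents as thick marks and the gene intervals below. Peaks stand at the start of Zic5 and the lower end of Zic2 in every list, with top folds of 38.7 and 21.6 in control and 23.7 and 14.6 with GLI1.

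Day 7 and day 5 control cells, both without doxycycline, were compared by the regions present in each list. The day 5 list was called against a local background and the day 7 control list against a constant one. The weakest peak of the day 7 control list had 13 reads. A change with time therefore cannot be told apart from a difference in peak calling or depth. At Zic1-Zic4, 4 of the 6 day 5 regions were absent from the day 7 control list and no region appeared. At Zic2-Zic5, 2 of 6 day 5 regions were absent and 4 of 6 day 7 regions were absent at day 5. Over the 4 genes this made 6 of 12 closed regions, as 50.0% of all day 5 regions were, and 4 of 8 opened regions, where 55.0% of all day 7 control regions were. Of the 6 closed regions, that just before the start of Zic1 had 21 reads at its summit and a day 5 fold of 7.79. The other 5 had 5 to 11 reads, and 1 of the 6 closed regions was left once peaks of a −log10 q below 5 were dropped from both lists.

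The day 5 list was called against a local background that ran from 0.732 to 1.84 reads at the Zic1-Zic4 summits and from 5.49 to 5.56 in the wide Zic2 region, so its folds cannot be compared between the loci. Reads can be compared within the list. The highest day 5 summit was that of Zic2 with 37 reads (26.1 to 51.0), followed by the Zic1 start and Zic5 with 21 each (13.0 to 32.1). The region inside Zic4 had 18 (10.7 to 28.4), and the highest region that the rule gave to Zic1 had 11 (5.5 to 19.7). The intervals of Zic2, the Zic1 start, Zic5 and Zic4 overlapped.

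Of the day 5 regions closed in day 7 control, 4 of 6 were present with GLI1 (66.7%, 30.0 to 90.3), against 12.5% of all closed regions. Both day 7 lists were called unlike the day 5 list, and neighbouring regions are not independent here either. Seen from the GLI1 list, 4 of 11 gained regions were day 5 regions (36.4%, 15.2 to 64.6), against 13.5% of all gained regions. None of the 3 lost regions was, against 8.95% of all lost regions. Of these 4 regions 3 are at Zic1: that just before its start, that just inside the gene and that at 91361853 to 91362263. The fourth is the region at 122450776 to 122451110 below Zic5, which had 6 reads at day 5. With peaks of all 3 lists merged, the 4 genes had 20 regions, of which 4 were found at day 5 and with GLI1 only, where 3.12% of 71159 regions were. No Zic region was found at day 5 and in day 7 control only, a class of 1.51% of all regions.

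**Figure D5:**
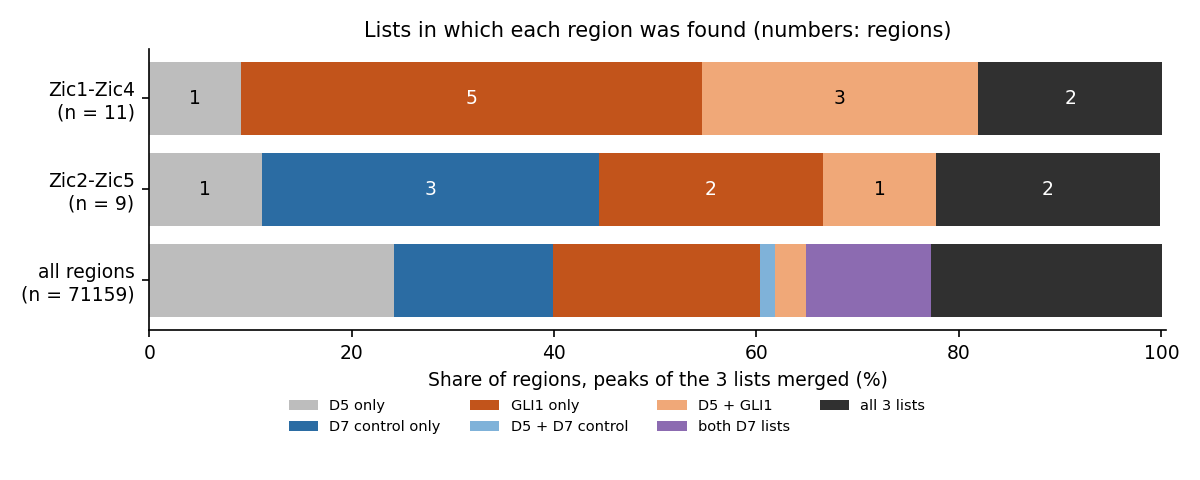
Share of regions (%) by the lists in which they were found, after merging the peaks of all 3 lists, for the Zic1-Zic4 locus (11 regions), the Zic2-Zic5 locus (9) and all 71159 regions; numbers in the bars are regions. At Zic1-Zic4, 5 regions were found with GLI1 only and 3 at day 5 and with GLI1, and none in control alone.

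The limit of 100 kb left no region out at Zic2-Zic5, but it left out some at Zic1-Zic4. The farthest member was a GLI1 region 26.6 kb from Zic5, with a fold of 2.63. In the gene-poor flanks of Zic1 and Zic4, the nearest region outside the limit was a day 5 region at 91513571 to 91513716, 124 kb from Zic4, with a fold of 5.53. Beyond 100 kb with Zic1 or Zic4 still the nearest gene, the GLI1 list had 3 regions, 2 of them gained, control had 2, 1 of them lost, and day 5 had 2. Over all regions, 39.0% of GLI1 regions were gained and 31.6% of control regions lost. The control list thus had as many regions of this locus beyond the limit as within it, where none was lost. The nearest one of the GLI1 list, at 91703756 to 91704374, had a fold of 15.6, above the highest of the locus within the limit, 13.5.

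Of the flanking genes of Zic2 and Zic5, Clybl had 3 of 9 GLI1 regions gained and 4 of 11 control regions lost, near the shares over all regions. Pcca had 3 of 7 gained and 6 of 9 lost. By counts over the 7 classes of presence in the lists, the genes most like Zic1 were Tmed3, Fbxw8 and Dennd3, each at a summed difference of 1 region, and the genes most like Zic5 were Rab3gap2, at 0, and Fam76b and Dcun1d4, at 1. These classes hold few regions, and 5 genes came within 1 of Zic1 and 51 within 1 of Zic5, among 16398 genes with a region.

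Genes of related roles showed the following counts in the comparison of GLI1 with control, where 39.0% of all GLI1 regions were gained and 31.6% of all control regions lost. Among 12 Hedgehog and GLI partner genes, 46 of 94 GLI1 regions were gained (48.9%) and 24 of 75 control regions lost (32.0%), and 8 genes had more gained than lost regions and 4 fewer. Gli1 itself had 6 gained and 0 lost; whether reads of the induced transgene fall there was not tested. Ptch1, the Hedgehog receptor, had 8 and 3, and Gli3, the main Hedgehog repressor, 5 and 3. Among 13 neural plate border and neural crest genes, where Zic factors act, 19 of 54 were gained and 18 of 54 lost. Other genes named here were picked after their values were seen. Msx1, a border homeobox gene, had 4 gained and 0 lost, of which 2 were day 5 regions, and Foxd3, a crest forkhead gene, had 4 and 0, of which 1 was; Sox9 had 1 and 4. Among 9 neural plate genes 15 of 45 were gained and 16 of 45 lost, with Sox2 at 3 and 1 and Sox21 at 0 and 3.

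Markers of several cell types were read against the same background, and against promoter windows, of which 53.0% of 17492 were open at day 5, 54.6% in day 7 control and 55.9% with GLI1. Of 7 cardiac progenitor genes with a window, 5, 6 and 4 were open, and of 7 cardiomyocyte genes 3, 3 and 2. These counts are too small to be told apart from the background. Of the cardiac progenitor genes, the windows of Isl1, Kdr, Pdgfra and Tbx20 were open in every list and that of Mef2c in none. The window of Nkx2-5, the cardiac homeobox gene, was open at day 5 and in control and not with GLI1, as 0.234% of all windows were. That of Hand2, a cardiac bHLH gene, was open in control alone, as 0.732% were. Among all regions given to these genes, Nkx2-5 had 1 gained and 2 lost, and Hand2 had 3 gained and 3 lost. Of 5 neural progenitor markers other than Zic genes, the windows of Sox1, Sox2 and Nes were open in every list and those of Pax6 and Otx2 in none. These 5 genes had 15 of 36 GLI1 regions gained (41.7%) and 9 of 30 control regions lost (30.0%), near the shares over all regions. Cardiac progenitor genes had 14 of 38 gained (36.8%) and 12 of 38 lost (31.6%), and paraxial mesoderm genes 6 of 18 and 7 of 19. Endoderm markers had 16 of 26 gained (61.5%) and 0 of 9 lost, with Foxa2, an endoderm and floor plate forkhead gene, at 11 gained and 0 lost. Endothelial and blood markers had 12 of 16 gained and 7 of 11 lost. Cardiomyocyte markers had 7 of 9 gained and 10 of 12 lost, and pluripotency markers 3 of 7 and 2 of 6. The part of any of these cell types in the Zic values was not tested.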

How the data were processed

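ATAC-seq was deposited for 8 libraries as 3 peak lists, 1 per group. Per the submitters' processing notes the tools were Bowtie2 2.3.2, SAMtools 1.5, Picard and MACS2 2.1.1, with the build mm10; the peak caller's settings are not given in the sources used here. Transposition took 30 minutes at 37 C on 150000 cells, per the labels' protocols. In the deposited lists the authors give each peak a fold, a ratio to the background, a −log10 p, a −log10 q, a score that follows the −log10 q, and the offset of its summit. In both D7 lists every fold was a whole multiple of 1 step, 0.18 in control and 0.1755 with GLI1 (largest deviation 4.8e-05 steps). The background was 4.56 and 4.70 reads, and summit reads were recovered from these; the Poisson −log10 p of the 53366 and 58368 peaks checked then matched the deposited one to 0.00014. For day 5, reads and background were solved for each Zic peak (largest error 1.2e-05). Depth is known only through these backgrounds.

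Peaks on standard chromosomes were merged within a list when they shared 1 base, and regions were assigned by the summit of highest −log10 q to the nearest of 21887 RefSeq protein-coding intervals within 100 kb, ties going to the shorter gene. Regions sharing at least 1 base were shared. Shares carry Wilson 95% intervals, reads exact Poisson intervals and ratios exact conditional binomial intervals. Merging, overlap and assignment were tested on simulated data. The genes, lists and settings were chosen with earlier results of these data known. All members were named, with the flanking genes, Gli1, Ptch1 and Gli3, and the 3 genes most like Zic1 and Zic5; some genes of the rule and the lists are not reported here. Promoters matched for Zic1, Zic4 and Zic5; that of Zic2 was not used here. Python 3.11.15, pandas 2.3.3, numpy 2.4.6 and scipy 1.17.1 were used.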

Additional observations from a re-analysis of the deposited data

How the results depend on the processing

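No paired analysis was possible because the libraries of a group were merged into 1 list before peak calling or deposit, which also prevents leaving a library out. Gained regions outnumbered lost ones at the 4 genes together under every alternative run, though not at Zic2-Zic5 alone, and their number followed the threshold on peaks. Over all regions as deposited, 16766 were gained and 12271 lost, and the counts over all regions under the alternatives were not computed. Gained regions were 11 as deposited, 5 at a −log10 q of at least 5, 3 at 10 and 7 with equal lengths of the D7 lists. Lost regions were 3 as deposited and 1 at a −log10 q of at least 10. A limit added after seeing the data, a fold no less than 2 times the weakest one the other list holds, gave 2 gained and 1 lost. Gained regions present at day 5 were 4, and 1 at a −log10 q of at least 5 as well as at 10; closed regions were 6, and 1 at either limit. Opened regions were 4, and 7 by nearest start site. Of 45 alternative values of the main counts and ratios, 34 stayed within 1.5 times or within the counting interval and 11 moved beyond. None reversed, a label that only the ratios could get. The alternatives for the ratios of the shared regions drew on the same summits as the main values, so they could hardly move. They are among the 34 and do not test the ratios. Summits of 5 to 37 reads at day 5 limit what its absence can show.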
